A study of Mus musculus with 6 samples.

Results

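Granins and the enzymes that process them are the cargo and the machinery of the dense-core secretory granule. The 10 genes described here were fixed by symbol, with earlier results of these data known. They are the granins Chga, Chgb, Scg2, Scg3 and Vgf, the convertase chaperone Scg5, and the processing enzymes Pcsk1, Pcsk2, Cpe and Pam. Their transcripts were read in N2A, a mouse neuroblastoma cell line. Cells received 1.5 µg of a non-targeting control vector or of a Pax6 knockdown construct, a short hairpin RNA vector, by transient transfection, and RNA was taken 3 days later. There were 3 control and 3 Pax6 knockdown arrays, called biological replicates in the labels, and 200 ng of RNA was labelled for each. The sources used here describe no sorting of transfected cells, so each array averages over the whole culture. One probe set per gene was used, the one with a single symbol and the highest mean over the 6 arrays. Of the 10 members, 9 were named in the platform annotation, each by 1 probe set, and 8 of these lay above the array-wide median on at least 3 arrays and were tested. They are part of 19938 named genes, of which 11424 were tested. Pcsk2 was not named in that annotation and has no value here. Pcsk1 was below the median on all 6 arrays and was not tested.

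Neuroendocrine cells and neurons store peptide hormones and monoamines in dense-core granules and release them when calcium rises. Granins are acidic secretory proteins that aggregate with calcium in the trans-Golgi network and help to gather cargo into the budding granule. Within the granule, prohormones and granins are cut at pairs of basic residues by the convertases of the Pcsk family, trimmed by carboxypeptidase E and, for many peptides, amidated by the product of Pam. PAX6 is a transcription factor of eye, brain and pancreatic islet development, and in mouse islet cells it is known to be required for normal expression of hormone and prohormone convertase genes. The comparison asks which of these transcripts change in a neural line when Pax6 is reduced.

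The study's oligonucleotide list holds 1 hairpin against Pax6, shown because Pax6 was reduced by a hairpin, with the sense arm in capitals. As listed, that arm ends in A, where the reverse complement of the second arm ends in G, so this base does not pair. The labels do not name the construct on the arrays.
Pax6 hairpin oligonucleotide: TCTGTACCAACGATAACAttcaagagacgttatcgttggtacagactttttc

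For the granin genes the 250 bases upstream of a RefSeq transcript start are shown for the 3 that changed and for Scg2, which did not pass the test, so that sequence stands beside response. The sequences are from RefSeq on build GRCm38.p6. The start used for Scg3 lay 1903 bases inside the outer bounds of the gene (chr9:75643366-75685959), so its window is upstream of 1 transcript start and not of the whole gene, whereas the starts of Chgb, Chga and Scg2 were at those bounds. Capitals mark the cyclic AMP response element TGACGTCA, the site of the CREB family of factors, or its half-site TGACG on either strand, which the full element contains on both strands.
Chgb (chr2:132781392-132781641, plus strand): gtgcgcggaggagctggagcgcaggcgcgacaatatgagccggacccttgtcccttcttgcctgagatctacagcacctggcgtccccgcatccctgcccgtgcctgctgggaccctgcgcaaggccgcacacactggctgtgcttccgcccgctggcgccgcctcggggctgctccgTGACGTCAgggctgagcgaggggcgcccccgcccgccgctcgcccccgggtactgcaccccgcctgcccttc
Scg3 (chr9:75684057-75684306, minus strand): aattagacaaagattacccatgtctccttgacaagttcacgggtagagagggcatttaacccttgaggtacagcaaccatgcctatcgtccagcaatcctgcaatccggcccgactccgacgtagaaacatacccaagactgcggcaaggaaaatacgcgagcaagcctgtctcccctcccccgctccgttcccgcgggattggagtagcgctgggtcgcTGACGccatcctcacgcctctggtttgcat
Chga (chr12:102554691-102554940, plus strand): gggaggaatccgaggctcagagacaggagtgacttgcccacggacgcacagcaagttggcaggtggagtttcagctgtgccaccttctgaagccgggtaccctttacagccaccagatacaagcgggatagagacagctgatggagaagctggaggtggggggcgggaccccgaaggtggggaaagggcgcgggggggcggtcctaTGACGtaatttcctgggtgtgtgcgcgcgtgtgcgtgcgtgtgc
Scg2 (chr1:79440027-79440276, minus strand): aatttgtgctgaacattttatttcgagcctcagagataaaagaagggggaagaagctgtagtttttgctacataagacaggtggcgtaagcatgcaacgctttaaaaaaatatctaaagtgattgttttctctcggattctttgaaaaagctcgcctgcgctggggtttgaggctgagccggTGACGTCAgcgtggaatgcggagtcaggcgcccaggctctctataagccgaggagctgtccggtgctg

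Vgf, a granin that like Scg2 did not pass the test, and Cpe had no such window in the sequences used. Of the 10 members, 8 had one. The full element was found upstream of 3 of these, Chgb, Scg2 and Pcsk1, against 1.55% of 32851 windows of the same length upstream of transcript starts. It began 72 bases before the start used in Chgb, 68 in Scg2 and 78 in Pcsk1, whose start lay 437 bases inside the bounds of its gene. The half-site was found in 7 of the 8 (17.8% of all windows), with Pam as the exception, whose 2 starts lay 207 and 221 bases inside its gene bounds. The letters TATAAA (12.4% of all windows), a PAX6 paired-domain core spelled CACGCNTGA (0.344%) and the palindromic homeodomain dimer site known as P3 (0.463%), all searched on both strands, were in no window of the 8 members. These matches describe letters and not bound sites.

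Pax6, the targeted gene, read 8.79, 8.82 and 8.81 on the log2 scale in control replicates 1, 2 and 3 and 8.48, 8.30 and 8.50 in knockdown replicates 1, 2 and 3, the order used for all values below. All 3 knockdown arrays lay below all control arrays. Knockdown minus control, the direction of every difference given, was -0.38 (SE 0.071, adjusted p = 0.0382 by limma). Of all tested genes, 443 were lower and 319 higher at 10% false discovery rate (FDR), which is 3.88% and 2.79%. The labels call N2A cells neuroblastoma, and 17 of 18 named markers of sympathetic and neuroblastoma cells were above the median on at least 3 arrays, the exception being the neurofilament gene Nefm. None of the 9 macrophage markers was, and 2 of 7 endothelial, 2 of 6 epithelial and 4 of 9 fibroblast markers were. The mean log2 level of the sympathetic list ran from 10.62 to 10.65 in control and from 10.47 to 10.57 in knockdown arrays, while the fibroblast list ran from 7.26 to 7.33 and from 7.20 to 7.39. Of the 17 tested sympathetic markers 10 were below and 7 above their control mean, with a median difference of -0.045, and those that passed the limma test were Dbh (-1.08), Chrna3 (-0.63) and Isl1 (-0.35). The part of these differences in the results below was not tested. Fewer cells expressing a gene and less of its RNA per cell cannot be told apart in these bulk samples.

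Of the 5 granin transcripts 3 were lower in the Pax6 knockdown. Relative to the control signal Chgb fell by 28.5%, Scg3 fell by 22.8% and Chga fell by 18.6%, and no member rose. Vgf, Scg2 and Scg5 did not pass the test, although their knockdown arrays also lay below their control arrays, and of the enzymes neither Cpe nor Pam passed. The count of 3 lower among 8 tested members stands against 3.88% lower among all tested genes, or 5.16% of the 5099 tested genes with a control mean above 10, a level that every tested member exceeded. The median log2 fold change of the 8 members was -0.24, against 0.017 for all tested genes. With the replicate number as a block, 6 of the 8 were lower and 0 higher, against 8.91% lower and 8.96% higher among all tested genes. The members and the related lists below were chosen with earlier results of these data known. Their shares beside all tested genes are therefore descriptions and not a test of the group.

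**Figure D1:**
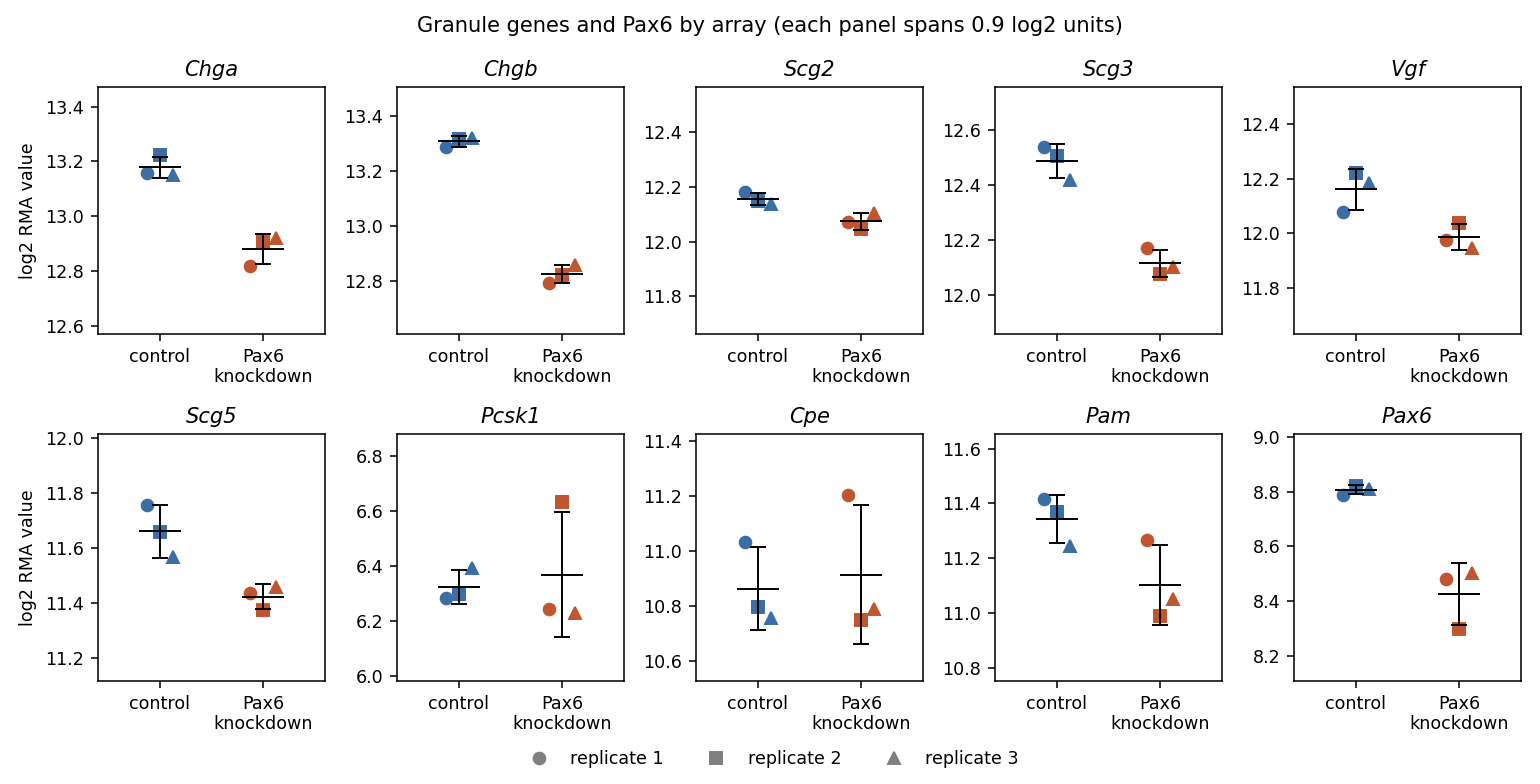
Log2 RMA value (vertical axis) of each measured member and of Pax6 in the 3 control (blue) and 3 Pax6 knockdown (red) arrays, with marker shape for the replicate number, and horizontal lines with bars for mean and SD. The groups are apart in Chgb, Scg3, Chga, Scg5, Vgf, Scg2 and Pax6, and overlap in Pcsk1, Cpe and Pam, where Cpe was high in replicate 1 of both groups (11.03 and 11.21).

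Chgb encodes chromogranin B, a major matrix protein of catecholamine-storing granules. Control replicates read 13.29, 13.32 and 13.32 log2 units and knockdown replicates 12.79, 12.82 and 12.86. The groups were far apart for their spread, with means of 13.31 ± 0.019 (SD, n = 3) and 12.82 ± 0.033 (SD, n = 3). The difference of -0.48 (95% confidence interval -0.61 to -0.36, SE 0.056) had an adjusted p of 0.00905 by limma, which placed Chgb at rank 32 of the tested genes by p. It passed 10% FDR whichever single array was left out.

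Chga encodes chromogranin A, the paralog of chromogranin B and the precursor of regulatory peptides such as catestatin and vasostatin. Its replicates read 13.16, 13.22 and 13.15 under control and 12.82, 12.90 and 12.92 under knockdown, again without overlap. This difference was -0.30 (95% confidence interval -0.44 to -0.16, SE 0.060, adjusted p = 0.0463). The call was lost when control replicate 1, 2 or 3 or knockdown replicate 3 was left out, with adjusted p of 0.130, 0.202, 0.153 and 0.161, and without the low-value filter (0.116).

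Scg3 encodes secretogranin III, which tethers chromogranin A to the cholesterol-rich granule membrane. Its values were 12.54, 12.51 and 12.42 in control and 12.17, 12.08 and 12.10 in knockdown arrays, and every knockdown array was below every control array. They differed by -0.37 (95% confidence interval -0.52 to -0.23, SE 0.063, adjusted p = 0.0285). The adjusted p was 0.105 without control replicate 1, 0.155 without control replicate 2 and 0.138 without knockdown replicate 3.

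Scg2 encodes secretogranin II, the precursor of secretoneurin. It read 12.18, 12.15 and 12.14 in control and 12.07, 12.04 and 12.10 in knockdown arrays, so the groups did not overlap but lay close together. Their difference was -0.08 (95% confidence interval -0.21 to 0.046, SE 0.056, adjusted p = 0.494).

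Vgf encodes a granin-like neuropeptide precursor that is induced by neurotrophins. Its values were 12.08, 12.22 and 12.19 in control and 11.98, 12.04 and 11.95 in knockdown arrays, with only 0.039 on the log2 scale between the lowest control and the highest knockdown array. The mean difference was -0.17 (95% confidence interval -0.32 to -0.025, SE 0.065, adjusted p = 0.195), and with the replicate block the adjusted p was 0.0950.

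Scg5 encodes the small chaperone that the convertase encoded by Pcsk2 needs to mature and that also blocks it until the granule acidifies. It read 11.76, 11.66 and 11.57 in control and 11.44, 11.37 and 11.46 in knockdown arrays, again without overlap. At -0.24 (95% confidence interval -0.40 to -0.08, SE 0.069, adjusted p = 0.111) it was just outside the 10% FDR, and the adjusted p was 0.0565 with the replicate block. Scg5 stayed outside 10% FDR when any single array was left out (limma adjusted p 0.131 to 0.320). Taken over the 8 tested members, the knockdown arrays of 6 lay wholly below the control arrays, against 11.7% of all tested genes and 14.8% of those with a control mean above 10.

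Pam encodes the monooxygenase that amidates the carboxyl end of many neuropeptides. Its values were 11.42, 11.37 and 11.24 in control and 11.27, 10.99 and 11.05 in knockdown arrays, and knockdown replicate 1 lay within the range of the controls. Means differed by -0.24 (95% confidence interval -0.44 to -0.04, SE 0.088, adjusted p = 0.192), with 0.0576 under the replicate block and 0.0862 without knockdown replicate 1.

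Cpe encodes carboxypeptidase E, which removes the basic residues left by the convertases. It read 11.03, 10.80 and 10.76 in control and 11.21, 10.75 and 10.79 in knockdown arrays, high in replicate 1 of both groups and overlapping. The difference of 0.05 (95% confidence interval -0.25 to 0.36, SE 0.13) had an adjusted p of 0.894, and its sign turned without knockdown replicate 1 (-0.09).

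Pcsk1, the convertase that makes the first cuts in many prohormones, was read at 6.28, 6.30 and 6.39 in control and 6.24, 6.63 and 6.23 in knockdown arrays. The control mean was 1.22 log2 units below the array-wide median, and only knockdown replicate 2 stood above the other arrays. Control and knockdown arrays overlapped, and Pcsk1 was not tested.

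**Figure D2:**
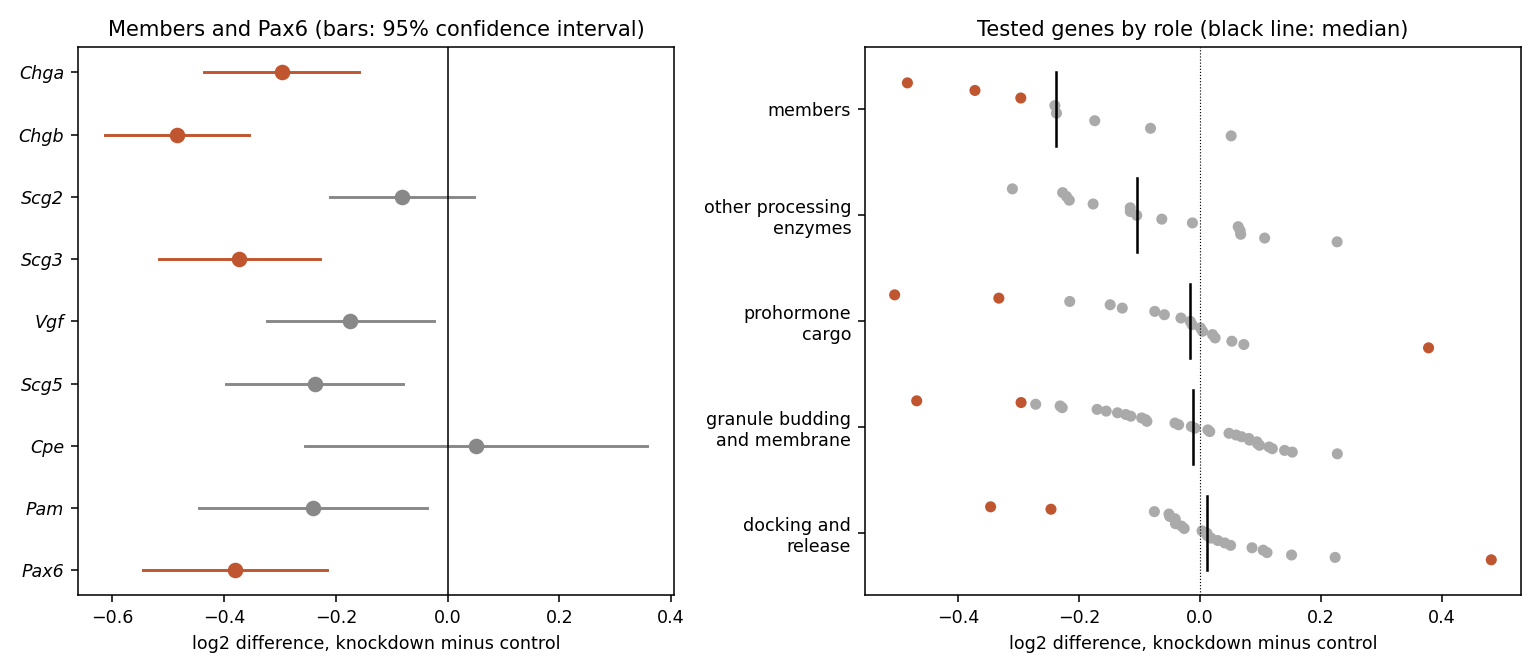
Left, log2 difference between knockdown and control with its 95% confidence interval for the 8 tested members and Pax6; right, log2 differences of tested members and of 4 lists of related genes, each point a gene, with medians as black lines and genes past 10% FDR in red. Members reach -0.48 with a median of -0.24, while the medians of the related lists lie between -0.11 and 0.011.

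Pairs of genes were then compared within each array, as the log2 value of one gene minus that of another. Only unequal change is read in this way. Chgb and Chga are paralogs, while Scg2 and Scg3 were paired only as granins. The difference Chgb minus Chga was 0.13, 0.096 and 0.17 in control and -0.027, -0.084 and -0.063 in knockdown arrays, a change of -0.19 (SE 0.027), and it was lower in every knockdown than in every control array. Scg2 minus Scg3 was -0.36, -0.36 and -0.28 in control and -0.098, -0.032 and 0.0045 in knockdown arrays, a change of 0.29 (SE 0.040), again without overlap. Both gave an exact two-sided permutation p of 0.10, the smallest that 3 against 3 arrays allow, and an adjusted p of 0.20 over the 4 pairs that could be formed. Cpe minus Cpd, the general carboxypeptidase of the trans-Golgi network, changed by 0.17 (SE 0.15, exact permutation p = 0.30). The fourth pair, Pcsk1 minus Pcsk1n, the gene of its granin-like inhibitor proSAAS, is not read as a change, since Pcsk1 was below the array-wide median on all arrays. No pair with Pcsk2 could be formed.

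**Figure D3:**
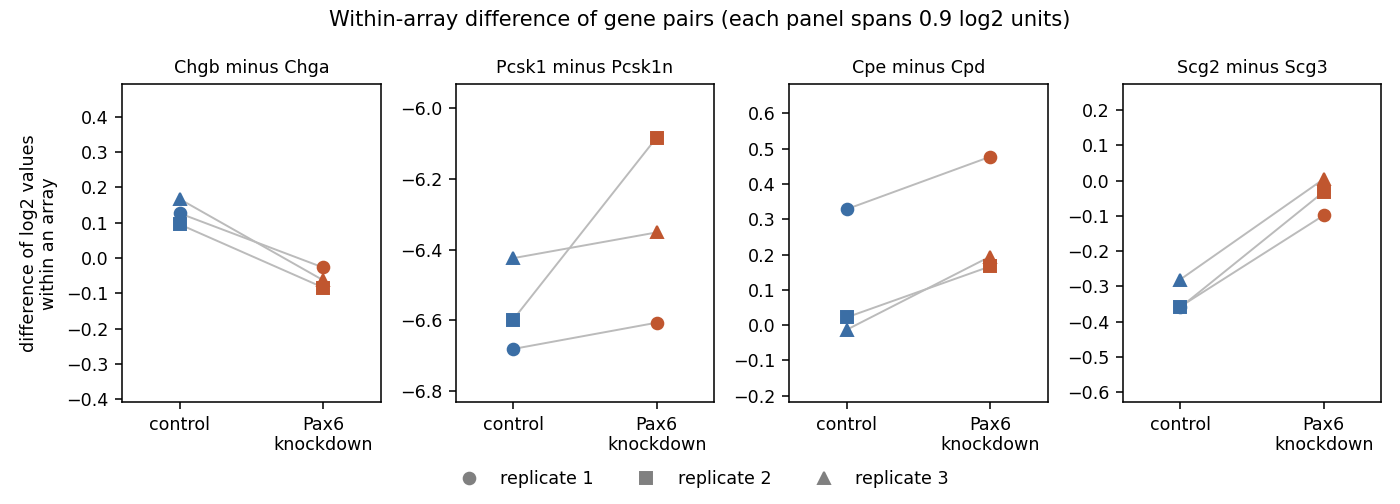
Difference of log2 values of 2 genes within an array (vertical axis) in control and Pax6 knockdown arrays, with marker shape for the replicate number and grey lines joining arrays of the same number. Chgb minus Chga moved from between 0.096 and 0.17 to below 0, and Scg2 minus Scg3 moved from between -0.36 and -0.28 to near 0, while the other pairs overlap, and Pcsk1 was below the array-wide median on all arrays.

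Of 87 tested genes on 4 lists of the regulated secretory pathway, 6 were lower and 2 higher, which is 6.90% and 2.30% against 3.88% and 2.79% of all tested genes, with a median log2 fold change of -0.015. Under the replicate block 14 fell and 4 rose, 16.1% and 4.6% against 8.91% and 8.96%. By list, the share lower without the block was 0% of processing enzymes, 11.8% of cargo, 6.25% of budding and membrane and 8.70% of docking and release genes, from 0 to 2 genes each. The lower counts and the budding and membrane share include Slc18a1, which passed the low-value filter only through the control arrays. With all named genes tested, and so without that filter, 2 of 140 related genes were lower, against 177 of 19938 genes. Among 15 tested processing enzymes and inhibitors 0 passed the limma test. Of the 15, 4 had an unadjusted limma p under 0.05, against 2146 of all 11424 tested genes. The lowest p was that of Ide, the insulin-degrading metalloprotease, at 11.48, 11.58 and 11.60 in control and 11.84, 11.70 and 11.80 in knockdown arrays (0.23, SE 0.067, limma adjusted p = 0.116). Pcsk1n read 12.96, 12.90 and 12.82 in control and 12.85, 12.71 and 12.58 in knockdown arrays (-0.18, SE 0.082, limma adjusted p = 0.295), and the groups overlapped. Under the block 4 of the 15 passed with a fall, Pcsk1n among them (limma adjusted p = 0.0882), and 1 with a rise. These shares are 26.7% and 6.67%, against 8.91% and 8.96% of all tested genes.

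Of 52 prohormone and neuropeptide genes 48 were named and 17 were above the filter, so most granule cargo genes were at or below the array-wide median in N2A cells. Among these 17, 2 were lower and 1 was higher (11.8% and 5.88%, against 3.88% and 2.79% of all tested genes). Npy, the precursor of neuropeptide Y that is stored with noradrenaline in sympathetic neurons, read 12.17, 12.01 and 11.86 in control and 11.54, 11.47 and 11.52 in knockdown arrays. All knockdown arrays were below the controls, and the difference was -0.51 (SE 0.084, adjusted p = 0.0284), lost without control replicate 2 (0.149) or knockdown replicate 3 (0.131). Nucb2, the precursor of nesfatin, fell by 0.33 on the log2 scale (SE 0.075, limma adjusted p = 0.0608), from 10.38, 10.31 and 10.33 to 10.04, 9.87 and 10.11. Adm, the vasodilator peptide adrenomedullin, rose by 0.38 (SE 0.092, limma adjusted p = 0.0744), from 8.15, 8.14 and 7.86 to 8.50, 8.34 and 8.43, close to the array-wide median. Neither call held when single arrays were left out: Nucb2 passed without knockdown replicate 1 or 2 and Adm without knockdown replicate 2, and both missed 10% FDR otherwise, with adjusted p up to 0.202 and 0.237.

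Of 32 tested genes of granule budding and membrane 2 fell and 0 rose (6.25% lower, against 3.88% of all tested genes), and 5 were lower with the replicate block (15.6% against 8.91%). Slc18a1, the vesicular transporter that loads monoamines into granules, read 7.95, 7.78 and 7.87 in control and 7.33, 7.38 and 7.48 in knockdown arrays (-0.47, SE 0.071, limma adjusted p = 0.0222), and it passed the low-value filter only through the 3 control arrays, the group in which it was high. With all named genes tested, and so without that filter, its adjusted p was 0.0526. Tmed10, a cargo receptor of the early secretory pathway, fell by 0.30 on the log2 scale (SE 0.062, limma adjusted p = 0.0510), from 12.56, 12.56 and 12.50 to 12.18, 12.24 and 12.32. With single arrays left out, Tmed10 passed only without knockdown replicate 1 or 2.

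Of 23 tested docking and release genes 2 fell and 1 rose (8.70% and 4.35%, against 3.88% and 2.79% of all tested genes). Vamp3, a widely expressed vesicle SNARE, rose from 11.45, 11.28 and 11.31 to 11.95, 11.75 and 11.78, by 0.48 on the log2 scale (SE 0.078, adjusted p = 0.0251), with adjusted p of 0.149 and 0.119 when control replicate 2 or 3 was left out and 0.121 for knockdown replicate 3. Syt7, a high-affinity calcium sensor of granule fusion, read 9.39, 9.47 and 9.60 in control and 9.14, 9.15 and 9.13 in knockdown arrays (-0.35, SE 0.069, limma adjusted p = 0.0452), with 0.182 and 0.157 when control replicate 2 or 3 was left out and 0.181 for knockdown replicate 3. Syt1, the fast calcium sensor, read 12.83, 13.01 and 12.91 in control and 12.69, 12.64 and 12.68 in knockdown arrays (-0.25, SE 0.067, limma adjusted p = 0.0956), and missed 10% FDR when any single array was left out (0.111 to 0.323).

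The tested genes whose profile over the 6 arrays, centred on the control mean, lay closest to that of Chgb were Syp, Ufsp1 and Folr1, at Euclidean distances of 0.10, 0.10 and 0.12 on the log2 scale. Syp, a membrane protein of small synaptic vesicles, read 10.30, 10.40 and 10.32 in control and 9.84, 9.93 and 9.90 in knockdown arrays. Ufsp1 read 10.19, 10.31 and 10.18 against 9.70, 9.75 and 9.81, and Folr1, a folate receptor gene, read 10.44, 10.51 and 10.43 against 9.86, 9.97 and 9.94. This likeness is a description and rests mostly on the size of the fall.

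The strength of the calls differed among members. Of the 3 members called, Chgb alone kept its call in each of the 18 alternative settings tried. Scg3 kept it in 15 of 18 and Chga in 13 of 18, and the losses of both are those listed with each gene above. In an alternative added after seeing the data, which left out both arrays of replicate 3 and so kept 2 arrays per group, 0 members passed and the adjusted p of Chgb was 0.386, with a log2 fold change of -0.50. The fold change of Chgb lay between -0.50 and -0.46 over all of these settings.

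**Figure D4:**
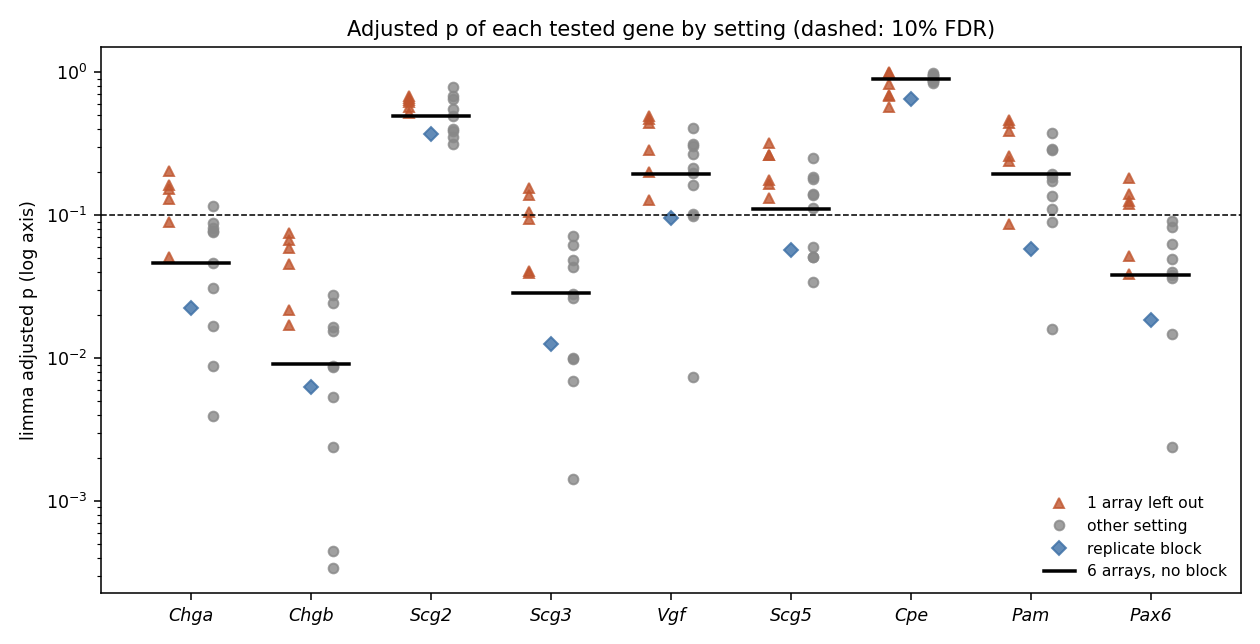
Limma adjusted p (vertical log axis) of the 8 tested members and Pax6, with black lines for the fit to 6 arrays without a block, red triangles with 1 array left out, blue diamonds with the replicate block and grey circles for the other planned settings, and the dashed line at 10% FDR; fits without both arrays of a replicate are not plotted. All plotted points of Chgb lie below the line and those of Scg2 and Cpe lie above. Those of Chga, Scg3, Vgf, Scg5, Pam and Pax6 lie on both sides.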

How the data were processed

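The deposited log2 values summarise the probe sets of an Affymetrix whole-transcript mouse array. The authors corrected background and summarised with RMA, normalised between arrays by quantiles, removed genes with consistently low values and tested with limma. The sources used here give neither versions nor a genome build, and no height for that filter. Quantile normalization hides a change in total RNA, and RMA can compress differences near background. The number of arrays limits the precision. The table held 35556 probe sets, with array medians between 7.49 and 7.59.

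Of these probe sets, 21789 had 1 symbol, 1621 several and 12146 none. The platform annotation's symbols were checked against RefSeq by gene identifier, where 21698 matched and 0 changed. Genes above the array-wide median on at least 3 of 6 arrays were fitted with limma 3.58.1 in R 4.3.3 (lmFit and eBayes, two-sided, Benjamini-Hochberg over all 11424 tested genes, threshold 10% FDR, as in the study). The fit was tested on simulated data. SE and intervals of single genes are those of the moderated fit. The SE of a gene pair comes from the pooled variance of the control and knockdown groups, without moderation. Gene pairs were compared by exact permutation over arrays.

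The members and lists were chosen with earlier results of these data known. Named are all members, Pax6, the genes in the pairs, up to 4 called genes of each related list with the lowest adjusted p (or the 1 with the lowest p), and the 3 genes closest to the member with the lowest adjusted p.

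Arrays of both groups share replicate numbers of unstated meaning. Same-numbered arrays deviated together (correlation 0.57, 0.32 and 0.23 for replicates 1, 2 and 3), so a fit with the number as a block was added, a pairing that rests on the values alone. Control replicate 3 with knockdown replicate 2 gave 0.18. Where nothing says what separates the replicates, p-values measure only the spread between these cultures.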

Additional observations from a re-analysis of the deposited data

How the results depend on the processing

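Under 18 alternative settings no tested member changed direction except Cpe, which ran from -0.095 to 0.14 with 1 array left out and read -0.0019 without control replicate 3 and -0.095 without knockdown replicate 1, and -0.0086 without both arrays of replicate 1. Members lower, of 8 tested, were 3 with 6 arrays, 6 with the replicate block and 5 with the 75th percentile filter. They were 5 after a second quantile normalization, 6 with array weights (whose estimation stopped before convergence), and 1 to 4 with 1 array left out. Over all genes these settings gave, in this order, 443, 1018, 517, 782, 1600 and 43 to 465 lower. The genes tested were 5982 at the 75th percentile and 11424 otherwise. Members lower were 1, 1 and 0 without both arrays of replicate 1, 2 and 3, an alternative chosen after seeing the data. No setting gave a member higher. Related genes lower were 6 of 87 tested, and 14 with the replicate block, 2 of 140 with all named genes tested and 10 of 46 at the 75th percentile. They were 11 after a second quantile normalization, 19 with array weights, 11 with trended robust eBayes and 3 at 5% FDR. With 1 array left out they were 1 to 7, and without replicates 1, 2 and 3 they were 0, 1 and 0. Related genes higher were 2, and 4 with the block, 1 with all named genes tested, 1 at the 25th percentile, 1 over all probe sets, 12 with array weights, 1 at 5% FDR, 0 to 4 with 1 array left out, and 1, 0 and 0 without replicates 1, 2 and 3.

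Over all genes, 443 were lower and 319 higher. The replicate block gave 1018 and 1024, array weights 1600 and 2639, and a second quantile normalization 782 and 601. The counts were 177 and 68 when no genes were filtered, 259 and 130 at the 25th percentile, over all probe sets 285 and 139, and at 5% FDR 213 and 101. The 75th percentile filter gave 517 lower and 529 higher of 5982 tested genes, and trended robust eBayes gave 595 and 459 of 11424. With 1 array left out they ran from 43 to 465 lower and from 7 to 820 higher, and without both arrays of replicates 1, 2 and 3 they were 110 and 30, 59 and 37, and 7 and 0. The filters change the number of genes over which p-values are adjusted and leaving out arrays lowers their number; the cause of the other shifts was not tested. The within-array changes ran from -0.20 to -0.17 for Chgb minus Chga, 0.27 to 0.32 for Scg2 minus Scg3 and 0.068 to 0.27 for Cpe minus Cpd with 1 array left out. The replicate block changed the calls of Vgf, Scg5 and Pam among members, given with each, and no other member's call. Signal limits Pcsk1, which was below the median on all arrays.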
